A study of Bos taurus with 24 samples.

Results

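The miRNAs of the imprinted DLK1-DIO3 region were described in mammary gland biopsies of dairy cows taken before and after feed restriction. They were chosen by name, as every listed miRNA that carries one of 43 miRNA numbers known from this region, with any letter, copy or arm suffix, and no measured value was used. The rule found 55 mature miRNAs among the 796 listed, for 40 of the 43 numbers. miR-453, miR-889 and miR-1193 had no listed miRNA. All 55 have a gene on chromosome 21 in the RefSeq gene table, among the 58 miRNA genes from MIR493 to MIR656. Genes of other kinds were left out of this order. The stretch holds 6 further miRNA genes. MIR3956, MIR3578 and MIR3957 have a listed miRNA that the rule does not name, and MIR329B, MIR453 and MIR1193 carry numbers of the rule but have no listed miRNA.

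In mammals the DLK1-DIO3 region is imprinted, so that its coding genes, DLK1, RTL1 and DIO3, are expressed from the chromosome inherited from the father and its noncoding RNAs, including this large miRNA cluster, from the chromosome inherited from the mother. The miRNAs are thought to be cut from long transcripts that run through the cluster, and they are best known from placenta, brain and muscle. A mutation in the same region of sheep gives the heavy muscling called callipyge. One group, with miR-127, miR-136, miR-431 and miR-433, lies antisense to RTL1, a gene needed in the placenta, and miR-127 and miR-136 pair fully with its transcript. The other large group runs from miR-379 to miR-656.

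The data were miRNA counts from small RNA sequencing of 22 libraries from 11 lactating, multiparous cows in midlactation. There were 5 Holstein (HOLS) and 6 Montbéliarde (MONT) cows, and each gave 1 biopsy on day 0 with free access to feed (CONT) and 1 on day 6 of feed restriction (REST), taken from alternating rear glands of the udder. The labels give the restricted allowance as 60% of the net energy for lactation and the study's methods give another share. A biopsy holds every cell type of the gland, so fewer cells of a type and less RNA per cell cannot be told apart, and the change with restriction cannot be told apart from the passing of 6 days or from a first biopsy.

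The libraries held 6087865 to 18913916 miRNA counts. Levels are given as normalized counts, which are counts divided by a size factor estimated over the 22 libraries together. Changes are log2 fold changes from edgeR, and a miRNA passed the test at an adjusted p of at most 0.05 over all miRNAs tested. The standard error (SE) given with a change was derived from the test. It is the absolute log2 fold change divided by the square root of the F statistic. One MONT cow, 9615, stood apart. Its CONT and REST libraries deviated from the means of their groups in opposite directions across miRNAs (r = -0.33), against 0.07 to 0.76 in the other MONT cows and 0.25 to 0.54 in the HOLS cows. Its libraries are used under their labels, and whether the 2 were exchanged was not tested, so each count over the 6 MONT or all 11 cows takes its labels as given. The main tests that include MONT are also given without this cow.

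The cluster was a small share of mammary miRNA and was dominated by a single member. The 55 miRNAs took 0.868% to 1.22% of the counts of the HOLS libraries and 0.648% to 3.26% of those of the MONT libraries. miR-127, of the group antisense to RTL1, made up 67.0% to 80.7% of the cluster's counts in a library and, with a mean of 104167 normalized counts, ranked 18 among all listed miRNAs. miR-411a, next to miR-379 in the gene order, followed with 28831 normalized counts and rank 37. Together the pair made up 93.8% to 97.0% of the cluster in every library. The third to the eighth place were taken by miR-409b (1080 normalized counts), miR-381 (753), miR-410 (736), miR-379 (604), miR-380-3p (567) and miR-136 (388).

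The remaining members were far scarcer. In all, 11 of the 55 had a mean between 100 and 10000 normalized counts, 20 lay between 10 and 100, and 22 lay below 10. A count was found in every library for 36 of them, and miR-329a and miR-544a had none in any HOLS library, with at most 2 counts in a MONT library. Neighbouring genes differed widely in level. miR-411a lies between miR-379 and miR-299, which averaged 604 and 44.5 normalized counts, and miR-380-5p, the scarce arm of the hairpin that gives miR-380-3p, had at most 2 counts in a library. The number of counts thus sets how well a change can be seen, and 35 members passed the filter on low counts in HOLS and 33 in MONT. The 20 members not tested in HOLS had at most 16 counts in any HOLS library and the 22 not tested in MONT at most 49.

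**Figure D1:**
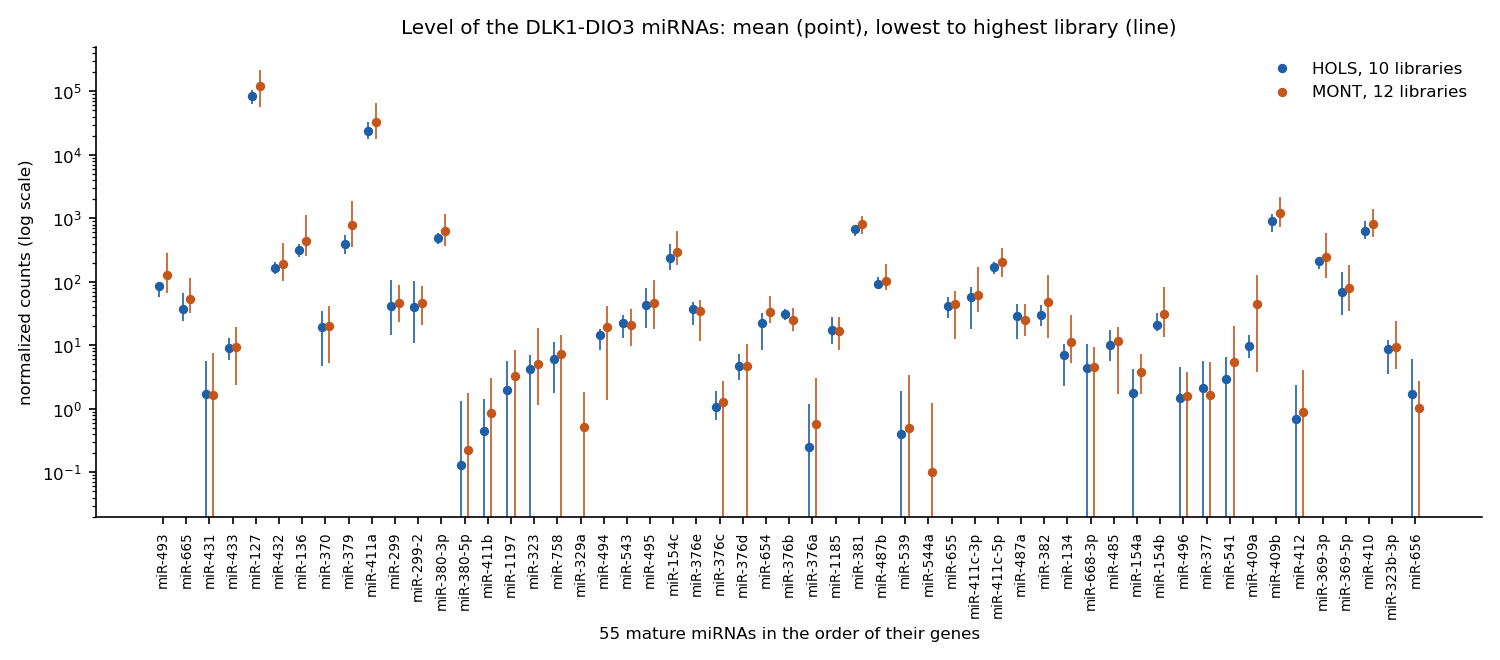
Normalized counts (log axis) of the 55 cluster miRNAs in the order of their genes along chromosome 21, as the mean (points) and the range from the lowest to the highest library (lines, which reach the bottom edge where a library had no count) of the 10 HOLS and 12 MONT libraries. miR-127 and miR-411a stand above 10000 normalized counts, and for miR-409a the HOLS point lies well below the MONT point.

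Some members are not separate measurements. MIR299 and MIR299-2 overlap in the gene table, and their miRNAs had equal counts in 6 libraries and were no more than 6 counts apart in the rest. miR-299 and miR-299-2 therefore stand for 1 measurement, which is called miR-299 below. Counts and shares of members still include both names, so they count this measurement 2 times. MIR409A and MIR409B share a position as well, but their counts were far apart and are described separately.

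In HOLS, miR-299 and miR-495 fell from CONT to REST and no member rose past the threshold. Of the 35 members tested, 3 passed, namely miR-299, miR-299-2 and miR-495, and all 3 fell, where 9 of all 374 miRNAs tested passed, or 2.41%. The members that fell lie in the miR-379 to miR-656 group, miR-299 as the third gene of that group and miR-495 some way further along. None of their neighbours in the gene order passed.

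In the 5 HOLS cows 1155, 1165, 2182, 8200 and 9195, in this order, miR-299 had 52.5, 46.4, 75.2, 108 and 47.6 normalized counts in CONT and 16.9, 17.8, 20.6, 16.3 and 14.4 in REST. Each CONT library was above each REST library, and the cows were spread more widely in CONT than in REST. miR-299 fell by 1.92 on the log2 scale (SE 0.26, adjusted p = 0.0007965 by edgeR), from 66.0 ± 26.4 to 17.2 ± 2.26 normalized counts (n = 5, SD). With the cow as a block its log2 fold change was -1.91.

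miR-495 had 78.7, 51.2, 59.6, 62.1 and 58.9 normalized counts in CONT and 19.1, 23.7, 25.1, 27.0 and 21.6 in REST in the same cows. Again the periods did not overlap, and every cow had less in REST. It fell by 1.42 on the log2 scale (SE 0.17, adjusted p = 0.0007472 by edgeR), from 62.1 ± 10.2 to 23.3 ± 3.10 normalized counts (n = 5, SD). Both calls stood when any one cow was left out, with adjusted p of at most 0.007427.

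The other members moved little in HOLS or were higher in REST. The members tested had a median log2 fold change of 0.08, against 0.02 over all miRNAs tested, and 25 of the 35 were above 0. This majority depended on the scaling: with library size alone the median of all miRNAs moved by -0.17 and 11 of the 35 members were above 0, while the members' median stayed 0.06 above that of all miRNAs against 0.05. The highest changes were those of miR-369-5p, miR-379 and miR-432.

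Another 3 members passed only when the 2 biopsies of a cow were compared within the cow, and all were higher in REST. With the cow as a block, 6 of the 35 members passed in HOLS, where 16.3% of all miRNAs did. The members' share was thus near the background. miR-369-5p, from the far end of the cluster, had 48.8, 56.0, 68.1, 47.4 and 29.8 normalized counts in CONT and 86.1, 62.9, 145, 89.2 and 50.4 in REST. It was higher in each cow, though the periods overlapped, and rose by a log2 fold change of 0.75 in the blocked fit (SE 0.17, adjusted p = 0.01408 by edgeR), against 0.83 without the block (adjusted p = 0.156).

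miR-379, the first gene of its group, had 282, 404, 275, 310 and 394 normalized counts in CONT and 518, 504, 392, 543 and 382 in REST. The periods overlapped, and 4 of the 5 cows were higher in REST, cow 9195 being slightly lower. Its log2 fold change was 0.49 in the blocked fit (SE 0.14, adjusted p = 0.04379 by edgeR) and 0.48 without the block (adjusted p = 0.1364).

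miR-127 had 62332, 75007, 65398, 88920 and 84356 normalized counts in CONT and 96370, 103135, 79982, 106592 and 89088 in REST. It was higher in REST in 5 of 5 cows, by 0.08 to 0.63 on the log2 scale, with overlapping periods. The blocked log2 fold change was 0.34 (SE 0.10, adjusted p = 0.04379 by edgeR), and 0.32 without the block (adjusted p = 0.1791). miR-411a, the other abundant member, was higher in all 5 cows too, with a log2 fold change of 0.33 (adjusted p = 0.1833 by edgeR) that passed only in DESeq2 with the cow as a block (0.31, adjusted p = 0.03179).

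Over the cows of HOLS, 6 of the 35 members were higher in REST in every cow (17.1%, against 15.0% of all miRNAs tested) and 3 were lower in every cow (8.57%, against 14.4%). The share that was higher in every cow was thus near the background. The 6 were miR-127, miR-369-5p, miR-381, miR-411a, miR-432 and miR-493, and the 3 were the members that fell.

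**Figure D2:**
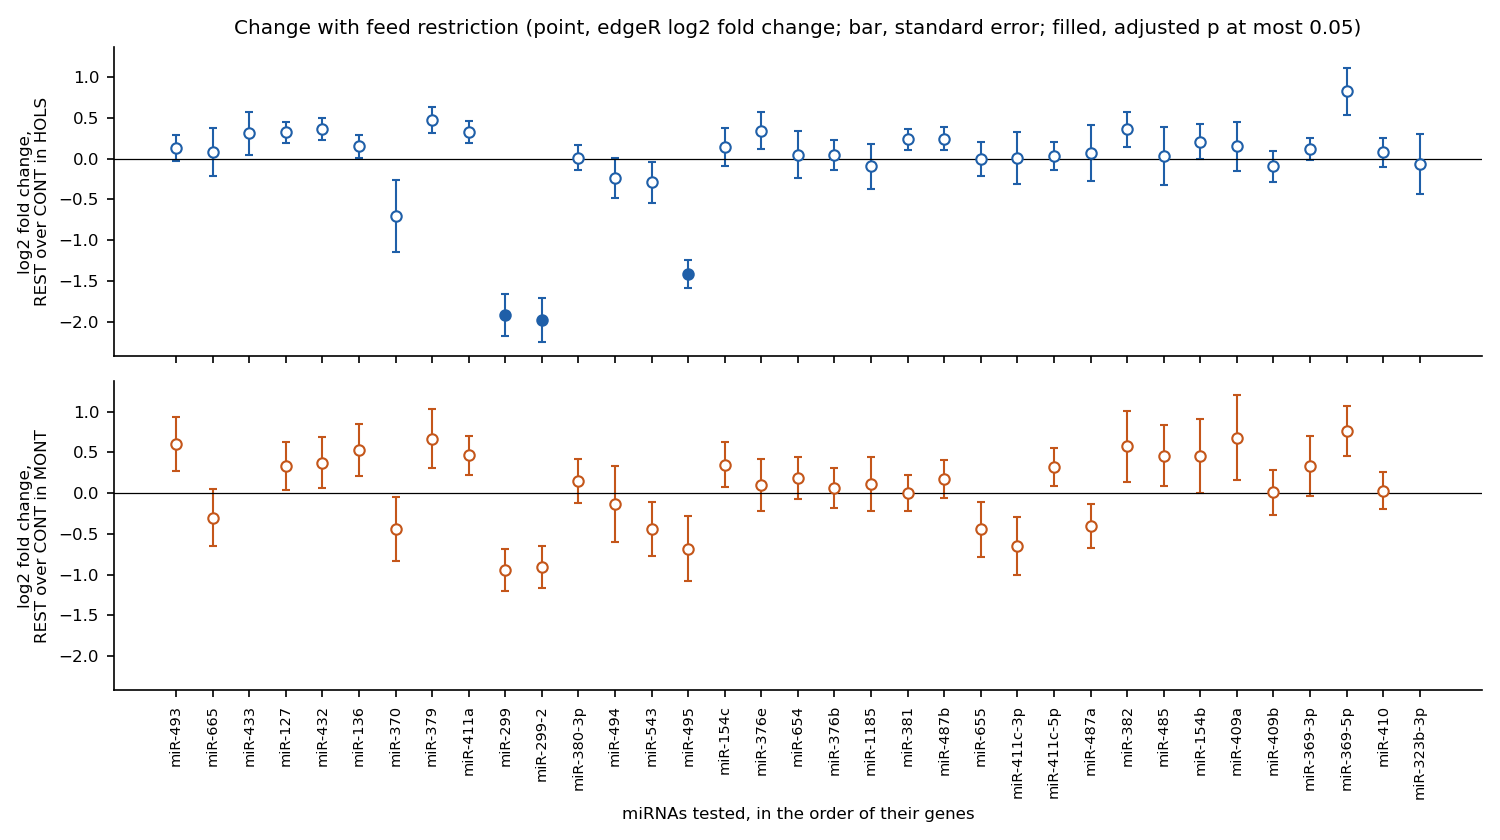
edgeR log2 fold change of REST over CONT (points) with its SE (bars) for the tested members in the order of their genes, with HOLS above and MONT below; filled points passed an adjusted p of 0.05. In HOLS miR-299, miR-299-2 and miR-495 are the 3 filled points at -1.92, -1.98 and -1.42, while the others lie between -0.29 and 0.48 apart from miR-370 at -0.70 and miR-369-5p at 0.83.

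Along the region, values in HOLS are given in gene order, and no test of neighbours was run. The 6 members tested of the group antisense to RTL1 or next to it had log2 fold changes of 0.08 to 0.37, all above 0, and none passed. miR-370, which lies alone between the groups, stood at -0.70 (SE 0.44, adjusted p = 0.3421 by edgeR). Of the 28 members tested from the miR-379 to miR-656 group, 19 were above 0. Here miR-379 and miR-411a, at 0.48 and 0.33, are the genes that precede miR-299, and miR-380-3p, at 0.01, follows it. Before miR-495 come miR-494 and miR-543, at -0.24 and -0.29, and after it miR-154c, at 0.15, none of which passed.

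In MONT no member passed the test, and miR-299 had the lowest log2 fold change of the members here as well. Of the 33 members tested 0 passed in edgeR, where 0.0% of all 349 miRNAs did, and DESeq2 also called 0; an unadjusted p under 0.05 was found for 3 members in edgeR and for 3 in DESeq2. The median log2 fold change of the members was 0.14, against -0.01 over all miRNAs, and 23 of the 33 were above 0. Without cow 1652, whose REST library had the highest level of the cluster, the median was -0.04 and 14 of the 33 were above 0. The paper proposes a lower quality of the MONT libraries among possible reasons for finding no change in this breed, which was not tested here.

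miR-299 ranged from 38.3 to 89.8 normalized counts in the MONT CONT libraries, with a median of 59.9, and from 23.0 to 42.0 in REST, with a median of 32.9. It was lower in REST in 6 of 6 cows, by 0.23 to 1.40 on the log2 scale, and the periods overlapped only in that the CONT library of cow 1652 was below the highest REST library. The log2 fold change was -0.94 (SE 0.26, adjusted p = 0.2998 by edgeR). miR-495 ranged over 26.2 to 106 in CONT, with a median of 48.5, and over 18.4 to 66.1 in REST, with a median of 30.0. It too was lower in 6 of 6 cows, with a log2 fold change of -0.68 (SE 0.40, adjusted p = 0.437 by edgeR), and its periods overlapped over most of their range.

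Of the 33 members tested in MONT, 5 were lower in REST in every cow (15.2%, against 4.58% of all miRNAs tested), namely miR-299, miR-299-2, miR-411c-3p, miR-495 and miR-655. None was higher in every cow, against 3.15% of all miRNAs, since cow 9615 went the other way. In this cow 32 of the 33 members were lower in REST, with a median log2 change of -0.96. The other 5 MONT cows had 13 to 27 members higher in REST and medians of -0.12 to 0.75. Cell type markers turned in cow 9615 too. Of the 6 stroma markers 4 were higher in REST in the other 5 cows and lower in this one, such as miR-199a-3p (0.52 to 1.62 against -1.04) and miR-214 (0.74 to 2.07 against -1.19). Of the 9 epithelium markers 4 went the reverse way, such as miR-200c (-2.01 to -0.51 against 1.40). Their part in the values of the cluster was not tested.

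Without cow 9615, 2 of the 33 members tested passed in MONT, miR-369-5p and miR-379. In that fit 12.8% of all miRNAs passed, so the members' share was below that of all miRNAs. Both members rose, by log2 fold changes of 1.03 (SE 0.31, adjusted p = 0.04732 by edgeR) and 1.11 (SE 0.31, adjusted p = 0.03907 by edgeR). In the full set miR-379 ranged over 352 to 1164 normalized counts in CONT, the highest being cow 9615, and over 388 to 1844 in REST, the lowest being cow 9615. miR-369-5p ranged over 34.2 to 91.0 in CONT and over 53.6 to 184 in REST, with cow 9615 again at the top of CONT and at the bottom of REST. Both members thus changed in this cow in the opposite direction to the other 5.

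With cow 9615 left out and the cow as a block, a fit chosen after the data were seen, 12 of the 33 members passed, where 39.1% of all miRNAs did, so the members' share was near the background. Of these, 9 rose: miR-127 (0.61), miR-136 (0.68), miR-369-5p (1.02), miR-379 (1.06), miR-382 (0.82), miR-409a (0.94), miR-411a (0.64), miR-432 (0.65) and miR-493 (0.77 on the log2 scale). The group antisense to RTL1 or next to it gave 4 of the 9, namely miR-493, miR-127, miR-432 and miR-136. The 3 that fell were miR-299, by 0.84 on the log2 scale (SE 0.24, adjusted p = 0.019 by edgeR), miR-299-2 and miR-411c-3p.

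**Figure D3:**
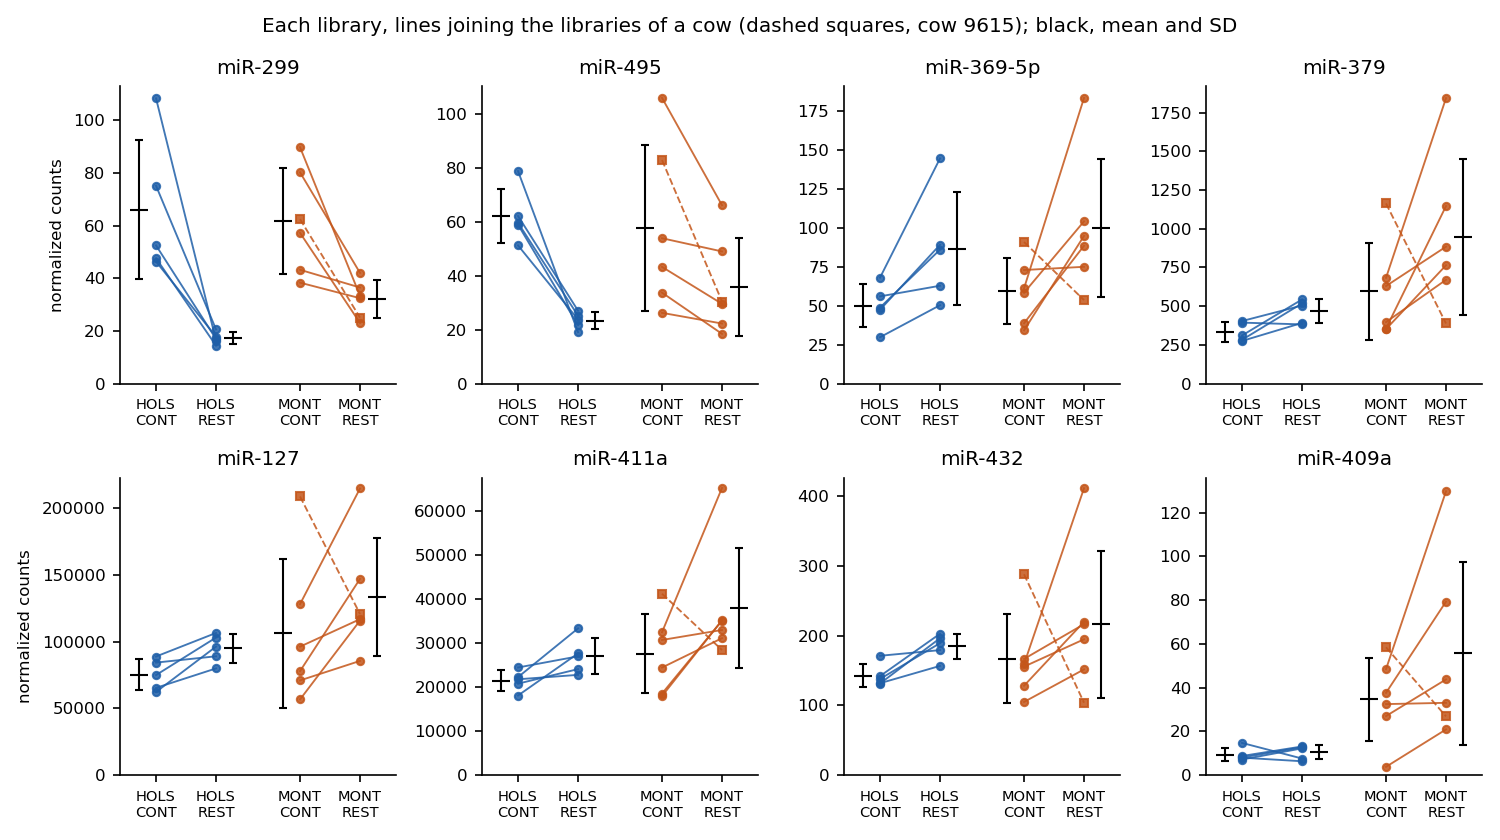
Normalized counts of 8 members in each library, with lines joining the 2 libraries of a cow, the dashed line with squares marking MONT cow 9615, and black marks giving the mean and SD of each group of 5 HOLS or 6 MONT libraries. miR-299 and miR-495 are lower in REST in all 11 cows, miR-369-5p, miR-127 and miR-411a are higher in every cow but 9615, and miR-409a is lower in HOLS than in MONT.

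**Figure D4:**
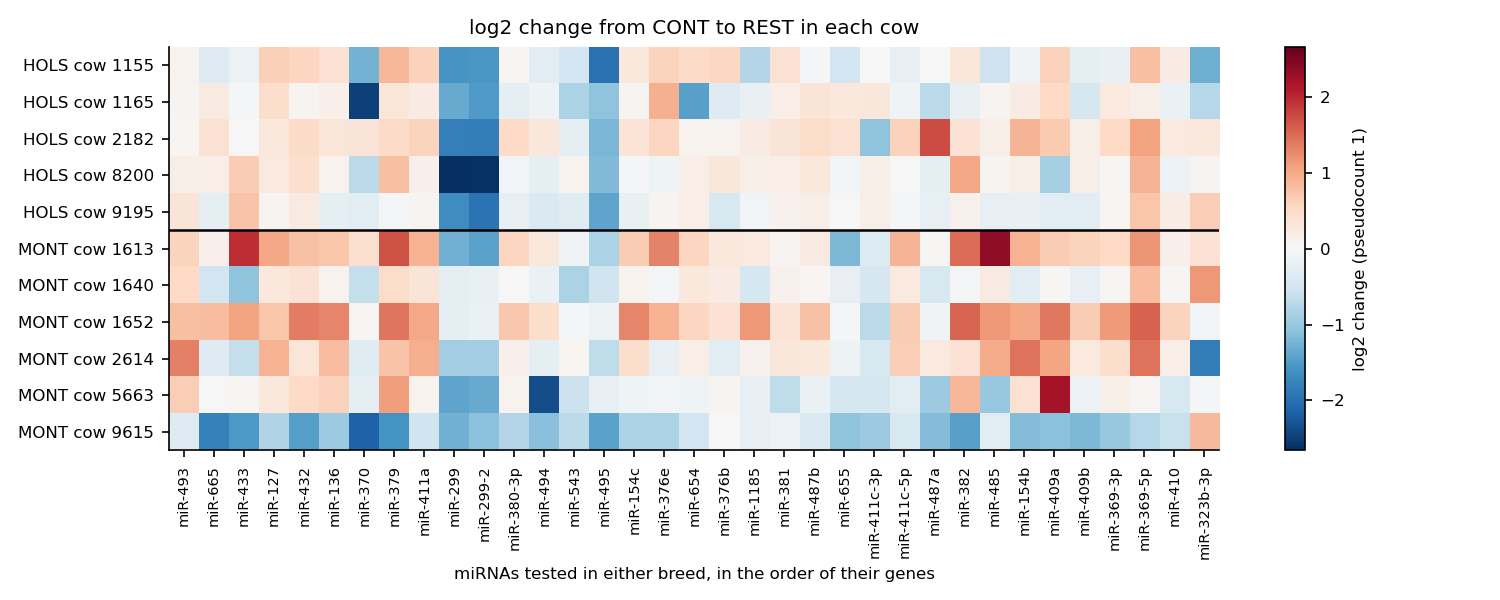
Log2 change from CONT to REST (color, pseudocount 1) of each tested member (columns, in gene order) in each of the 11 cows (rows, HOLS above the line). The columns of miR-299, miR-299-2 and miR-495 are blue in each row, and the row of MONT cow 9615 is blue for 32 of the 33 members tested in MONT.

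The changes of HOLS and MONT were not shown to differ with all cows included. In the test of the breed by period interaction 0 of 37 members passed in edgeR, where 0.0% of all 388 miRNAs did, and 0 in DESeq2; 2 members had an unadjusted p under 0.05 in each tool. For miR-299 the change in HOLS was lower than that in MONT by a log2 difference of -1.04 (SE 0.38, adjusted p = 0.9912 by edgeR), and for miR-495 by -0.78 (SE 0.48, adjusted p = 0.9912). Without cow 9615 and with the cow as a block, a fit chosen after the data were seen, 3 members passed, where 5.93% of all miRNAs did. They were miR-299 (-1.14, SE 0.32, adjusted p = 0.04858 by edgeR), miR-299-2 (-1.23) and miR-495 (-0.97, SE 0.27, adjusted p = 0.04257 by edgeR), and each changed more in HOLS in that fit. Since miR-299-2 is the same measurement as miR-299, the members' share was near that of all miRNAs.

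Of the 33 members tested in both breeds, 21 were above 0 in both, 7 below 0 in both and 5 on opposite sides. The 7 were miR-299, miR-299-2, miR-370, miR-494, miR-495, miR-543 and miR-655. miR-370 stood at -0.70 in HOLS and -0.44 in MONT, and the values of miR-494, miR-543 and miR-655 were between -0.45 and -0.01, none of which passed.

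miR-299 and miR-495 were also set against other members inside each library, where no scaling enters. For every 1000 counts of miR-411a, miR-299 had 2.19 to 4.44 counts in the HOLS CONT libraries and 0.606 to 0.740 in HOLS REST. In MONT the ratio was 1.18 to 4.48 in CONT, with a median of 2.35, and 0.498 to 1.198 in REST, with a median of 0.948. It was lower in REST in 5 of 5 HOLS and 6 of 6 MONT cows, cow 9615 among them. The periods did not overlap in HOLS, and in MONT only the CONT library of cow 1652 fell within the REST range.

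miR-495 per 1000 counts of miR-411a was 2.47 to 4.36 in HOLS CONT and 0.690 to 1.003 in HOLS REST. In MONT it was 0.855 to 5.91 in CONT and 0.525 to 1.88 in REST, and it was lower in REST in all 11 cows. By contrast miR-379 per 1000 counts of miR-411a overlapped between periods in both breeds, at 12.4 to 19.5 in CONT and 11.8 to 20.97 in REST in HOLS, and was higher in REST in 3 of the 5 HOLS and 4 of the 6 MONT cows. Against miR-379, miR-299 went from 115 to 349 counts per 1000 in HOLS CONT to 30.1 to 52.5 in HOLS REST, and was lower in REST in 5 of 5 HOLS and 5 of 6 MONT cows. The exception was cow 9615, at 53.7 in CONT and 64.5 in REST, where the log2 change between its libraries was -1.58 for miR-379 and -1.29 for miR-299. The ratios show unequal change of the members and not which of them changed.

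**Figure D5:**
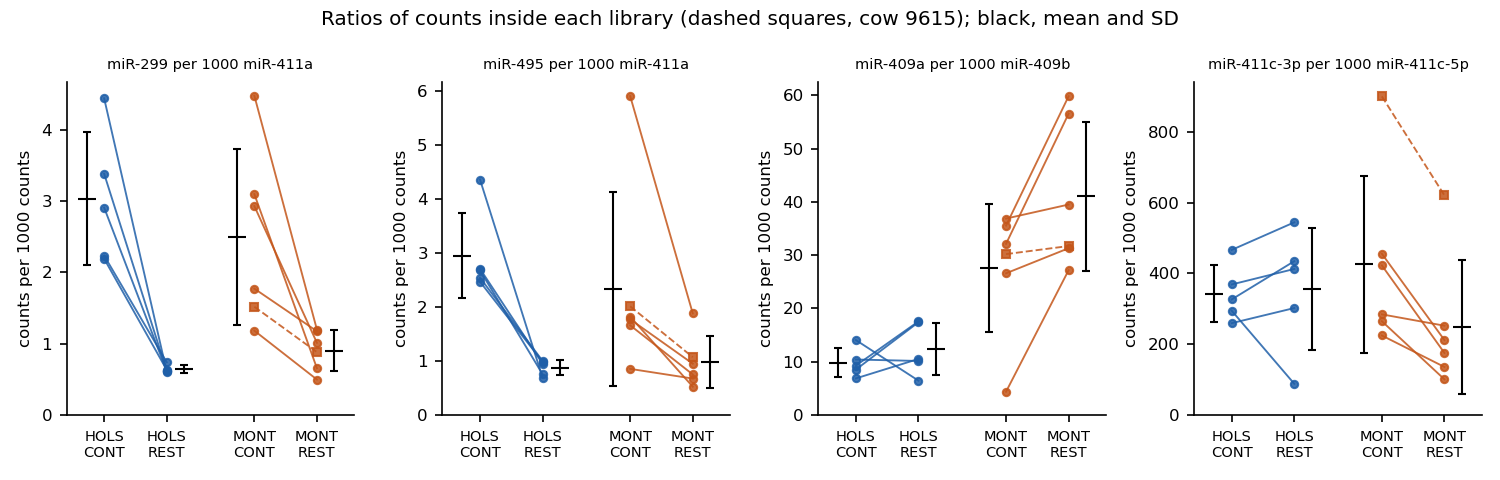
Counts of a member per 1000 counts of another member of the cluster in each library, with lines joining the libraries of a cow, dashed squares for MONT cow 9615, and black marks for the mean and SD of the 5 HOLS or 6 MONT libraries. miR-299 and miR-495 per 1000 miR-411a are lower in REST in all 11 cows, miR-409a per 1000 miR-409b is lower in every HOLS REST than in every MONT REST library, and miR-411c-3p per 1000 miR-411c-5p is lower in REST in all 6 MONT cows.

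Between the breeds, most members stood lower in HOLS than in MONT, and miR-409a had the lowest log2 fold change in both periods. The study reported a smaller share of clean reads in its MONT than in its HOLS libraries. Breed and library quality therefore cannot be told apart in these comparisons. In CONT 0 of 33 members passed in edgeR, where 0.556% of all 360 miRNAs did; 5 had an unadjusted p under 0.05, and DESeq2 called 1, miR-409a. The median log2 fold change of HOLS over MONT was -0.26, against -0.01 over all miRNAs, and 26 of the 33 members were below 0. Without cow 9615 the median was -0.11, with 21 of 32 below 0, and 0 passed by edgeR, with 3 at an unadjusted p under 0.05. In REST 4 of 36 members passed, where 15.3% of all 378 miRNAs did. All 4 were lower in HOLS, and the median was -0.39 against -0.03 over all miRNAs, with 29 of the 36 below 0. With library size alone the median of all miRNAs moved by -0.13, and 31 of the 36 were below 0. The members' share was below that of all miRNAs. Without cow 9615, 5 members passed in REST, with miR-493 added, and the median was -0.47.

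miR-409a had 8.02, 8.69, 7.09, 14.7 and 7.94 normalized counts in the HOLS CONT libraries of cows 1155, 1165, 2182, 8200 and 9195, and 12.7, 13.0, 12.2, 7.54 and 6.29 in REST. In MONT it ranged over 3.74 to 58.4 in CONT, with a median of 34.995, and over 20.8 to 130 in REST, with a median of 38.4. In REST the highest HOLS library was below the lowest MONT library. In CONT 5 MONT libraries were above every HOLS library, and that of cow 5663, at 3.74 normalized counts, was below every HOLS library. The log2 fold change was -2.47 in REST (SE 0.49, adjusted p = 0.01008 by edgeR) and -1.93 in CONT (SE 0.46, adjusted p = 0.06094 by edgeR). Without cow 5663 the CONT value was -2.14 (SE 0.29, adjusted p = 0.003934 by edgeR). Without cow 9615 the values were -2.60 in REST (adjusted p = 0.003479 by edgeR) and -1.74 in CONT (adjusted p = 0.1037).

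miR-409b, listed at the same position, did not show this gap. It averaged 945 ± 125 normalized counts in HOLS CONT and 884 ± 259 in HOLS REST (n = 5, SD), and 1212 ± 425 and 1224 ± 514 in MONT (n = 6, SD). Its log2 fold change between breeds was -0.37 in CONT (adjusted p = 0.3659 by edgeR) and -0.47 in REST (adjusted p = 0.256). For every 1000 counts of miR-409b there were 6.46 to 17.6 counts of miR-409a in HOLS REST and 27.2 to 59.8 in MONT REST. In CONT the ratio was 6.87 to 14.1 in HOLS and 26.6 to 36.9 in 5 MONT libraries, with cow 5663 at 4.37. In MONT the ratio was higher in REST in 6 of 6 cows and in HOLS in 3 of 5. The counts of miR-409a behind these values were low, with a smallest count of 2.

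The other members that differed between breeds in REST were miR-299 and miR-379. miR-299 in HOLS REST lay at 14.4 to 20.6 normalized counts, below every MONT REST library at 23.0 to 42.0, with a log2 fold change of -0.91 (SE 0.24, adjusted p = 0.02227 by edgeR), and -0.98 without cow 9615 (adjusted p = 0.01053). In CONT the breeds overlapped, and the log2 fold change was 0.09 (adjusted p = 0.8986 by edgeR). miR-379 was 382 to 543 in HOLS REST and 388 to 1844 in MONT REST, so the breeds overlapped through cow 9615 alone, the other MONT REST libraries being at 670 to 1844. Its log2 fold change was -1.03 (SE 0.31, adjusted p = 0.0403 by edgeR), and the call was lost when any HOLS cow or MONT cow 1613 or 1652 was left out, with adjusted p from 0.05438 to 0.09536. Without cow 9615 it was -1.19 (SE 0.25, adjusted p = 0.006579 by edgeR). In CONT it was -0.85 (adjusted p = 0.1777 by edgeR) and -0.55 without cow 9615 (adjusted p = 0.2009). miR-127 and miR-411a were at -0.50 and -0.49 in REST, with adjusted p of 0.1158 and 0.1354 by edgeR.

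Where a hairpin gave a pair of countable arms, their balance differed between hairpins. miR-369-5p had 146 to 425 counts for every 1000 counts of miR-369-3p in HOLS CONT and 236 to 623 in HOLS REST, and was relatively higher in REST in 4 of 5 HOLS and 5 of 6 MONT cows. miR-369-3p itself was at a log2 fold change of 0.12 in HOLS and 0.33 in MONT, against 0.83 and 0.76 for miR-369-5p. For miR-411c, the 3p arm had 225 to 900 counts per 1000 of the 5p arm in MONT CONT and 101 to 620 in MONT REST, and it was lower in 6 of 6 cows. Cow 9615 had the highest value in both periods, and the other 5 lay at 225 to 455 and 101 to 252. In HOLS it was higher in 4 of 5. In HOLS the log2 fold changes were 0.01 for miR-411c-3p and 0.03 for miR-411c-5p. In MONT they were -0.65 (adjusted p = 0.4178 by edgeR) and 0.32 (adjusted p = 0.4743). None of these arms passed in either breed with all cows and no block.

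From library to library the members varied together. After the mean of each of the 4 groups was taken off, the log2 normalized counts of 37 members tested in the 22 libraries had a median pairwise r of 0.42, with 594 of 666 pairs above 0. Pairs among the 351 other miRNAs had a median of 0.00044 and pairs of a member with another miRNA one of -0.06. Without cow 1652 the members' median was 0.32, and without cow 9615 it was 0.40. These correlations are over 22 libraries that share cows and depth, and are given as a description. miR-409b and miR-380-3p followed the mean of the other members most closely, with r of 0.96 and 0.94, and miR-127 and miR-411a gave 0.72 and 0.76.

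miR-299 was among those that followed the cluster least. Its r with the mean of the other members was 0.12, above those of miR-411c-3p (0.06) and miR-323b-3p (-0.24). It had r = 0.11 with miR-411a and 0.22 with miR-495. miR-495 gave 0.63 with the mean of the others. miR-409a followed miR-409b with r = 0.68, while miR-411c-3p and miR-411c-5p gave -0.21. miR-323b-3p is scarce, with a mean of 9.23 normalized counts, but miR-411c-3p, at 60.3, was more abundant than miR-299.

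The sum of the cluster, which is mostly miR-127 and miR-411a, was higher in REST in most cows. In HOLS the summed level was 101539 ± 13503 normalized counts in CONT and 127137 ± 9504 in REST (n = 5, SD), higher in 5 of 5 cows by a mean log2 change of 0.33 ± 0.20. As a share of all miRNA counts the mean log2 change was 0.15 ± 0.19, with 4 of 5 cows higher. Counted over members, HOLS cows 1155 and 9195 had 16 of 35 members above 0 and 19 below, with medians of -0.02 and -0.06, while cows 1165, 8200 and 2182 had 18, 22 and 29 above 0. In MONT the sum was 140233 ± 65651 in CONT and 178605 ± 59719 in REST (n = 6, SD), higher in 5 of 6 cows, with a mean log2 change of 0.41 ± 0.65, less than its spread between cows, and -0.75 in cow 9615. Since miR-127 dominates the sum it was taken again without it, which leaves mostly miR-411a, and the mean log2 changes were 0.28 ± 0.23 in HOLS and 0.41 ± 0.61 in MONT.

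Markers of other cell types moved beside the cluster, and their part in its changes was not tested. The 6 stroma markers, such as miR-143 and miR-199a, were all above 0 in both breeds, with median log2 fold changes of 0.29 in HOLS and 0.67 in MONT, and none passed. Their summed level was 1665530 to 2542960 normalized counts in HOLS CONT and 2480590 to 3176470 in HOLS REST, and 2098940 to 4206330 in MONT CONT and 2355360 to 4864310 in MONT REST. The 9 epithelium markers of the miR-200, miR-205 and miR-182 families were below 0 for 6 members in HOLS and 7 in MONT, none of which passed. Their summed level was 432157 to 542963 in HOLS CONT, 305123 to 667419 in HOLS REST, 221780 to 560876 in MONT CONT and 174159 to 405659 in MONT REST. In REST, 5 of the 6 stroma markers were below 0 in HOLS against MONT and 3 passed, all lower. In that comparison 15.3% of all miRNAs passed. Of the 9 epithelium markers 2 passed as higher, miR-141 (1.06) and miR-200c (0.99), and 1 as lower, miR-205 (-0.59, adjusted p = 0.0259 by edgeR), and of the endothelium markers miR-126-3p passed as higher (0.53, adjusted p = 0.03007). These marker values include cow 9615. Of the 6 listed neuron markers 1 was tested, miR-9, which was lower in HOLS in REST, with a log2 fold change of -1.77 (adjusted p = 0.02439 by edgeR). Endothelium, leukocyte, red blood cell and skeletal muscle markers gave no call with restriction in either breed. These restriction results for markers are those of edgeR with all cows and no block, and other fits called more miRNAs in HOLS. With DESeq2 the study itself reported miR-143 and miR-155 as higher and miR-200b and miR-200c as lower in HOLS REST.

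Among imprinted miRNAs outside the rule, 1 fell in HOLS, where 2.41% of all miRNAs tested passed. Another 1 differed between the breeds in REST, where 15.3% of all miRNAs passed. miR-1247-5p, which lies near DIO3 in the same region, was at a log2 fold change of 0.74 in HOLS (adjusted p = 0.2989 by edgeR) and 0.76 in MONT (adjusted p = 0.4481). Between breeds in REST it was lower in HOLS, by a log2 fold change of -1.50 (adjusted p = 0.02227 by edgeR). Of the 4 miRNAs tested from other imprinted regions, miR-296-5p, of the GNAS region, fell in HOLS by 0.93 on the log2 scale (adjusted p = 0.04182 by edgeR). The other arm of its hairpin, miR-296-3p, was at -0.15 in HOLS (adjusted p = 0.6666 by edgeR) and 0.04 in MONT (adjusted p = 0.9387). miR-483, which lies in IGF2, was at -0.70 in HOLS and -0.86 in MONT, miR-335, in MEST, at -0.01 and 0.33, and none of these values passed.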

How the data were processed

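Small RNA libraries of mammary biopsies were sequenced, trimmed, filtered for size, mapped to the bovine genome and counted with miRDeep2 against miRBase; the labels name bcl2fastq 2.17.1.14 and DESeq2 1.18.1. The authors deposited, for each breed, unnormalized counts per miRNA, which were used here. They also deposited DESeq2-normalized counts, group means and their own fold changes and p-values, which were not used. The labels hold 24 samples, and the 2 of a further HOLS cow are not analysed here. Library totals were 6087865 to 18913916 counts, so a member with few counts shows only large changes.

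The tables were joined by name. Changes were tested with the quasi-likelihood test of edgeR 4.0.16 (R 4.3.3) with TMM scaling and the filterByExpr filter (minimum count 10), within each breed, for the breed by period interaction and between breeds in each period. P-values were adjusted by Benjamini-Hochberg over all miRNAs tested. Normalized counts used DESeq2 1.42.0 size factors over the 22 libraries, and changes per cow used a pseudocount of 1. Breeds were scaled together for levels and separately in the within-breed tests. The fits were also run on simulated counts with large changes, the same dispersion for all miRNAs and no cow effect. That run checked only that changes were recovered in the right direction. It does not cover small changes or libraries paired by cow. Libraries of the same number come from the same cow according to the labels; their deviations correlated with r from -0.33 to 0.76, and the cow was a block in an alternative fit.

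The members and lists were chosen with earlier results of these data known. Named members were those past the threshold in any comparison, the 8 most abundant, the 3 highest and 3 lowest changes in each breed, and both arms of a hairpin tested in both breeds; neighbours, members that moved the same way in every cow, miR-370, miR-380-5p, miR-323b-3p and those called in an added fit were chosen after their values were seen. Gene order came from a RefSeq table of another genome build, from which no coordinates are given. Mature sequences and shared seeds were not analysed here. Alternatives were other scalings, no filter, robust dispersions, DESeq2, the cow as a block and leaving out each cow.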

Additional observations from a re-analysis of the deposited data

Results flagged for a closer look

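The 17 named members were examined in 4 groups each, 68 in all, for a single library far from the others of its group, and 7 were found, where chance gives about 1 in 20, or 3.4. Among MONT libraries, cow 1652 had 1138 normalized counts of miR-136 in REST against 279 to 527 in the other cows, and 65153 of miR-411a against 28360 to 35106. MONT cow 9615 had 171 of miR-411c-3p in CONT against 45.4 to 74.3, and 288 of miR-432 against 105 to 166. Among HOLS libraries, cow 8200 had 14.7 of miR-409a in CONT against 7.09 to 8.69, cow 2182 had 893 of miR-410 in REST against 537 to 612, and cow 1165 had 171 of miR-432 in CONT against 131 to 142. No named member passed the test of a difference between the breeds' changes with all cows included.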

How the results depend on the processing

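The 3 calls in HOLS were made in every fit run. With the cow as a replicate block 6 members passed in HOLS, and 7 with DESeq2 and the block; with library size alone the members' median was -0.0857. In MONT and for the interaction the block changed no call while all cows were kept, and these counts ran from 0 to 2 and stayed at 0 when 1 cow was left out, the 2 being found without cow 9615. Without that cow and with the block, chosen after seeing the data, they were 12 and 3. In CONT between breeds DESeq2 called 1 member, and the count was 0 to 1 when 1 cow was left out. In REST it was 3 to 6, the 6 being found without MONT cow 1640, with 3 in edgeR without a filter, where miR-299 had an adjusted p of 0.05171, and 5 in DESeq2, which added miR-493. Leaving out 1 cow gave medians of 0.01 to 0.11 in HOLS, -0.04 to 0.27 in MONT, -0.41 to 0.04 for the interaction, -0.36 to -0.11 in CONT and -0.50 to -0.21 in REST. The values nearest to 0 came without cow 2182 in HOLS and cow 9615 in CONT, and those of -0.04, 0.04 and -0.21 without cow 1652. No named member past the threshold turned its direction. The cause of these differences was not tested. Depth limits the scarce members: 18 of the 55 were tested in no comparison.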
